A study of Homo sapiens with 5 samples.

Results

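The genes described here carry a WDR symbol or encode a beta subunit of the heterotrimeric G proteins (GNB1, GNB2, GNB4 and GNB5). They were chosen by symbol, from the genes listed in both deposited tables with at least 20 counts in at least 2 of the 5 libraries. The rule itself used no difference between groups, although it was set with earlier results of these data known. It kept 58 genes of the 64 with such a symbol, out of 15187 genes in both tables, and all 58 were among the 13123 genes tested. WDR38, WDR93, WDR86, WDR97, WDR63 and WDR88 stayed outside, the last with 20 or more counts in 1 library. The member nearest the minimum was WDR78, with 13 to 36 counts a library, and the next was WDR83, whose 2nd highest library held 167 counts.

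The libraries are RNA-seq of SAS, a human cell line established from a squamous carcinoma of the tongue. In 3 libraries the cells carried short hairpin RNA against CCT2 (shCCT2), and in 2 they carried control short hairpin RNA (shCtrl). The first deposited table, set A, held shCCT2 1, shCCT2 2 and shCtrl 1, and the other, set B, held shCCT2 3 and shCtrl 2. Changes in a knockdown library are relative to the control in its set. The labels give neither the number of hairpin sequences nor separate cultures. Off-target effects of a hairpin and loss of CCT2 therefore cannot be told apart, and the p-values rest on variation among libraries that may be technical. In such bulk libraries, fewer cells of a kind and less RNA per cell also cannot be told apart.

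CCT, also called TRiC, is a double-ring chaperonin of the cytosol that folds newly made proteins inside its chamber, and CCT2 encodes one of its subunits. Besides actin and tubulin, its best known clients include proteins built from WD repeats, short repeats that fold into the blades of a ring-shaped beta propeller. The G protein beta subunits are the classic example, since CCT and a phosducin-like cofactor fold them before they join a gamma subunit. Not every WDR protein has been shown to need CCT. RNA-seq measures the mRNA of these genes and not the folding or amount of their proteins.

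Library totals were 17555763 to 18156592 counts in shCCT2 libraries and 16913585 to 17976483 counts in shCtrl libraries. The 58 genes together took 0.353% to 0.392% of the counts in shCCT2 libraries and 0.351% to 0.378% in shCtrl libraries. Levels below are CPM, counts relative to the library total, scaled by TMM for composition, and a log2 change of 1 is a doubling. CCT2 itself stood at 296, 272 and 260.2 CPM in shCCT2 1, 2 and 3, against 629.9 and 642 CPM in shCtrl 1 and 2. The knockdown libraries were all below both controls, in the direction of their labels, although CCT2 did not pass the test over all genes (adjusted p = 0.542, edgeR's quasi-likelihood test, Benjamini-Hochberg). It did pass in DESeq2's Wald test (log2 change -1.21, adjusted p = 3.9e-05). All 9 squamous epithelial markers exceeded 10 CPM in every library, and the markers of other cell types together stayed at or under 21.5 CPM a list in shCCT2 libraries and 13.2 CPM in shCtrl libraries. The share of transcript coverage signal in the last 20% of transcript positions was 14.3% to 15.8% in shCCT2 libraries and 15.8% to 17.3% in shCtrl libraries, and its part in the results was not tested.

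None of the 58 genes passed. In edgeR's quasi-likelihood test, adjusted by Benjamini-Hochberg, 0 members were called higher and 0 lower at an adjusted p under 0.05, as were 0 of all 13123 genes (0%), and the members' adjusted p ran from 0.542 to 0.991. At an unadjusted p under 0.05, 2 members were higher (WDR62 and WDR73), a class that holds 2.83% of all genes, and 1 was lower (WDR45), a class that holds 4.57%. DESeq2's Wald test also called 0 members after adjustment, where 0.0169% passed higher and 0.0928% lower of the 11850 genes to which it gave an adjusted p. These include 57 of the 58 members, all but WDR78. At an unadjusted p under 0.05 it gave 5 higher members, against 4.05% of all genes, and 1 lower member, against 6.04%. The fit left 2 residual degrees of freedom. With edgeR, the higher members at that unadjusted threshold numbered 11 without shCtrl 1 and 0 without shCCT2 3, and the lower ones 3 without shCCT2 2 and 0 without shCCT2 3.

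The members' fitted log2 changes ran from -0.81 to 1.27. Of the 58, 35 (60.3%) had a fitted change above 0, as did 48.5% of all genes, and the median was 0.10 on the log2 scale against -0.016 over all genes. These values over all genes, 48.5% and -0.016, are also the reference for the lists of members and partners below. By library, the members' median change was 0.067 in shCCT2 1, -0.016 in shCCT2 2 and 0.24 in shCCT2 3. In shCCT2 1, 34 members exceeded their control (49.7% of all genes), in shCCT2 2 it was 27 (49.7%) and in shCCT2 3 it was 34 (48.8%). Without shCtrl 1 the median of the fitted changes was 0.27, and without shCtrl 2 it was 0.064. For 52 of the 58 members the fitted change moved by over 1.5 times when 1 library was left out, and for 22 its sign turned. Higher in all 3 knockdown libraries were 13 members (22.4%), against 20.2% of all genes, and lower in all 3 were 11 (19%), against 21.4%. All 3 shCCT2 levels lay above both shCtrl levels for 5 members (WDR62, WDR73, WDR5, WDR34 and WDR76), where 7.97% of all genes did the same. They lay below both for 4 members (WDR45, WDR59, WDR27 and GNB5), where 8.28% of all genes did. The 4 shares of members with 1 direction throughout were near those of all genes.

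**Figure D1:**
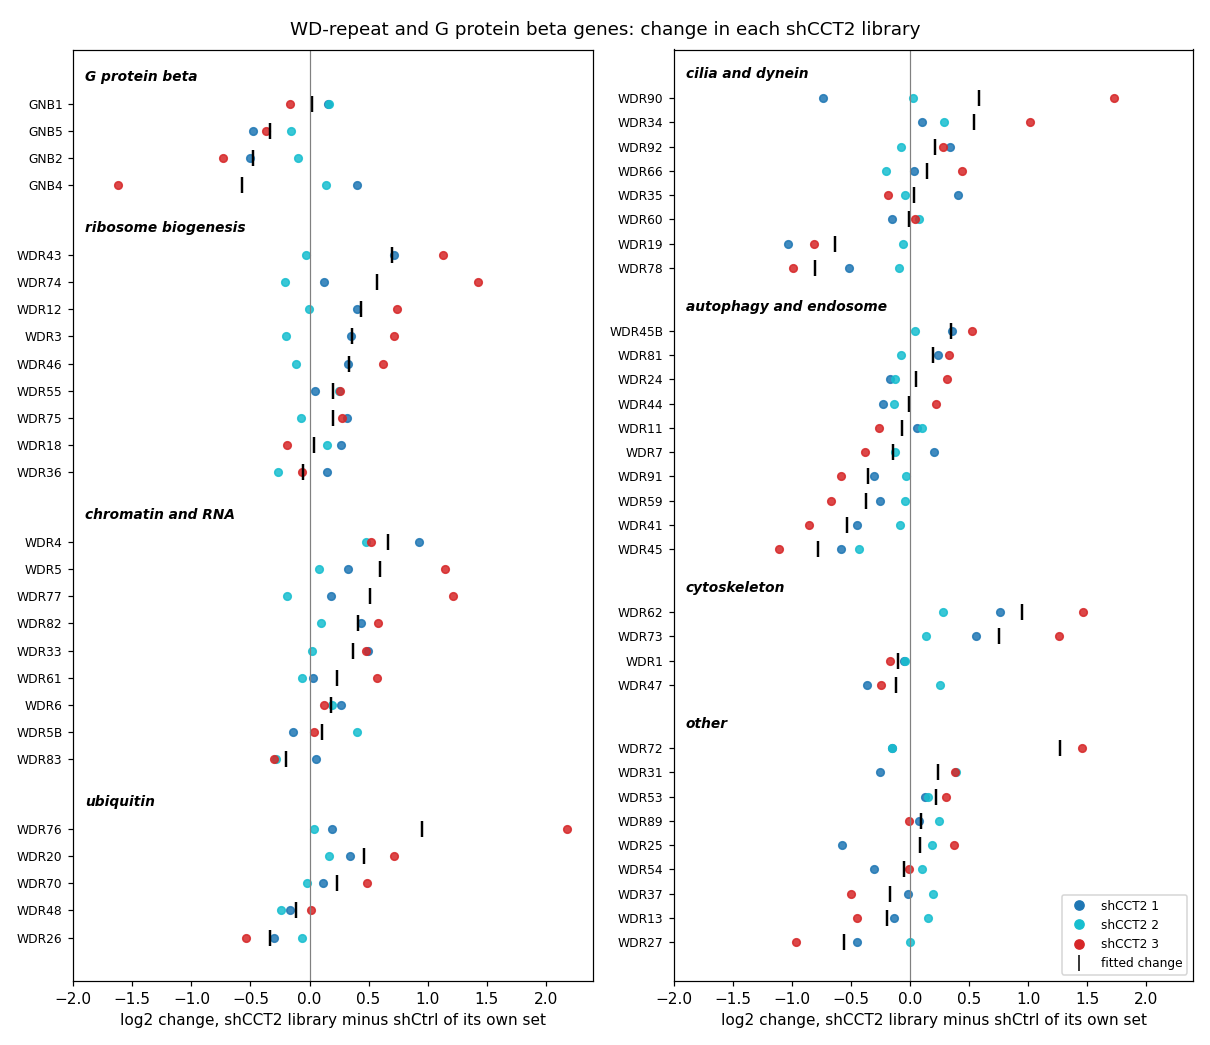
Log2 change of each member in shCCT2 1, shCCT2 2 and shCCT2 3, each minus the shCtrl of its own set, with the fitted change as a black bar and members grouped by role. Most points lie within 1 log2 unit of 0, and the shCCT2 3 points reach farthest to both sides, at 2.18 for WDR76 and -1.63 for GNB4.

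Promoters were sought for the members with an unadjusted p under 0.05 in edgeR's test (WDR45, WDR62 and WDR73). WDR76 and GNB4, with the smallest p for a difference between the sets, were added. No sequence was found for WDR73 and WDR76, so 3 are shown, those of WDR45, WDR62 and GNB4. Each sequence runs from 250 bases before to 50 bases after the start of the gene that RefSeq annotates in GRCh38.p14. Promoters were found for 51 of the 58 members. Capitals mark matches, on either strand, to the CCAAT box (CCAAT), the E-box (CACGTG), an ETS site (CCGGAAG), an NRF1 site or an E2F site (TTTCCCGC or TTTGGCGC). The first, of WDR45, lies at chrX:49101129-49101428 on the minus strand, the second, of WDR62, at chr19:36054647-36054946 on the plus strand, and the third, of GNB4, at chr3:179451421-179451720 on the minus strand.
WDR45: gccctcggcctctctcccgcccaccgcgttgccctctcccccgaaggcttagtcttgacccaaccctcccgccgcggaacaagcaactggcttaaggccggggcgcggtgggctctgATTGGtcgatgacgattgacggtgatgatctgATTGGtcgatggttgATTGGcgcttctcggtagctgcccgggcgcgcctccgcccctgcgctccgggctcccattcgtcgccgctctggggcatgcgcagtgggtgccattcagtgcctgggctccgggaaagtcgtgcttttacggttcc
WDR62: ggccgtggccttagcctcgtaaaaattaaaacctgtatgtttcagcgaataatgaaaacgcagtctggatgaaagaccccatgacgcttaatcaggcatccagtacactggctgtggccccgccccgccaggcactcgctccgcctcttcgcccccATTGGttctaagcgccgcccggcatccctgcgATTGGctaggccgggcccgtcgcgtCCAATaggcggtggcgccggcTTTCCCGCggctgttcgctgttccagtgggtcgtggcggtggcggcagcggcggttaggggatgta
GNB4: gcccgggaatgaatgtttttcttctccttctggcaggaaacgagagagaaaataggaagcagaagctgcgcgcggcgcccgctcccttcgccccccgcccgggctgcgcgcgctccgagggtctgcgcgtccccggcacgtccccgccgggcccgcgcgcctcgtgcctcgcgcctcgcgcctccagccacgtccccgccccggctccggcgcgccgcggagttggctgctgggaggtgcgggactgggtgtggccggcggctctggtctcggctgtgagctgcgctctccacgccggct
The promoter of WDR45 holds 3 CCAAT boxes, which begin 133, 101 and 86 bases before the start. That of WDR62 holds 3 CCAAT boxes, at 94, 62 and 37 bases before the start, and an E2F match that begins 16 bases before it. No match was found in the window of GNB4, of which 73.7% was G or C. Over the 51 member promoters, a CCAAT box stood in 22 (43.1%, against 35.7% of 27305 promoters), an ETS match in 14 (27.5%, against 10.7%), an E-box in 7 (13.7%, against 7.43%), an E2F match in 4 (7.84%, against 2.31%) and an NRF1 match in 0 (against 1.36%). The reference promoters were not limited to genes measured in these libraries, whereas the members had met a count minimum. These shares describe letters in the windows and were not tested.

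The G protein beta subunits are the members with the best described route through CCT. They pair with a gamma subunit and carry the signal of G protein-coupled receptors together with the alpha subunit. GNB1 (gene 2782), the most widely used beta subunit, stood at 509.5, 510.4 and 542 CPM in shCCT2 1, 2 and 3 and at 456 and 609 CPM in shCtrl 1 and 2. The shCCT2 levels lay between the controls, and the fitted log2 change was 0.019 ± 0.19 (SE, 3 shCCT2 and 2 shCtrl libraries, as for all SEs below). GNB2, its close relative, stood at 202, 268 and 138 CPM in shCCT2 libraries and 287 and 230.0 CPM in shCtrl libraries. It was lower than its own control in each knockdown library, by log2 changes of -0.50, -0.10 and -0.73, but the levels of the groups overlapped, and the fitted change of -0.48 ± 0.22 did not pass (unadjusted p = 0.0727). It was -0.70 without shCtrl 1, -0.285 without shCCT2 3 and -0.14 with the replicate number as a block in place of the set. GNB5, which pairs with a family of RGS proteins in place of a gamma subunit, stood at 23.3, 29.3 and 29.5 CPM in shCCT2 libraries and 32.6 and 38.1 CPM in shCtrl libraries. All its knockdown levels were below both controls, with a fitted change of -0.34 ± 0.21 (unadjusted p = 0.162).

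GNB4, a less widely expressed beta subunit, had opposite directions in the sets. It stood at 58.6, 48.7 and 12.5 CPM in shCCT2 1, 2 and 3 and at 44.1 and 39.6 CPM in shCtrl 1 and 2. In set A both knockdown libraries were above their control, and in set B the knockdown library was far below it, the log2 changes being 0.41, 0.14 and -1.63. The test of the difference between the sets gave -1.95 ± 0.36 on the log2 scale with an unadjusted p of 0.00178 and an adjusted p of 0.135 (edgeR's quasi-likelihood interaction test, Benjamini-Hochberg over all genes), so it did not pass. No G protein beta gene passed, and 3 of the 4 had a fitted change below 0, with a median of -0.41 that was -0.52 without shCtrl 1 and -0.062 without shCCT2 3. The alpha and gamma subunit genes, their partners, were split, with 8 of 15 tested genes above 0 and a median of 0.044, and 0 passed. GNG12, a widely expressed gamma subunit, had a fitted change of -0.62 ± 0.23, and GNAI1, an inhibitory alpha subunit, had -0.90 ± 0.36 with -0.50, -0.094 and -1.67 in shCCT2 1, 2 and 3. GNG11, another gamma subunit, had -0.998 ± 0.52, with -0.11, 0.024 and -2.06 in the 3 libraries.

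Per kilobase of the longest protein-coding GENCODE transcript, GNB1 had the highest level of the 58, at a mean of 167 CPM per kilobase over the 5 libraries. GNB2 came next with 119.9 and WDR1 after it with 108.0 CPM per kilobase. GNB1 spanned 162 to 172 CPM per kilobase in shCCT2 libraries and 145 to 194 in shCtrl libraries. GNB2 spanned 73.7 to 143 in shCCT2 libraries and 122.5 to 153 in shCtrl libraries, so it overlapped GNB1 in shCtrl libraries only. WDR1 spanned 94.8 to 112 in shCCT2 libraries and 107 to 115 in shCtrl libraries, so it overlapped GNB2 in shCCT2 libraries only. GNB4 and GNB5 were much lower per kilobase, at means of 6.33 and 3.43.

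**Figure D2:**
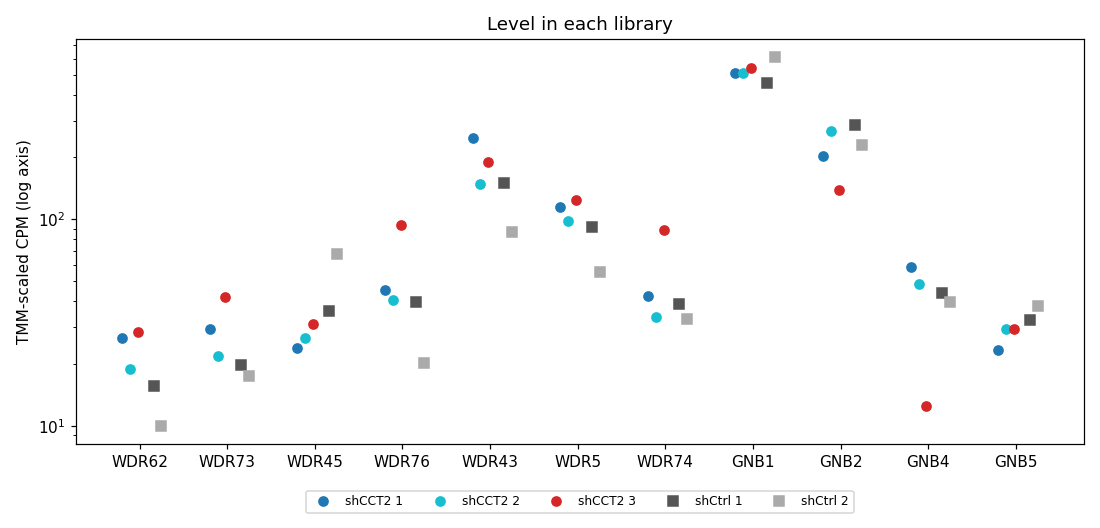
TMM-scaled CPM, on a log axis, of 11 members in each shCCT2 library (circles) and each shCtrl library (squares). WDR62, WDR73, WDR76 and WDR5 have all shCCT2 points above both shCtrl points, WDR45 and GNB5 have them below, and GNB4 is low in shCCT2 3 alone.

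Of 9 members with a part in ribosome biogenesis, 8 had a fitted change above 0, where 48.5% of all genes did, and 0 passed. The list median was 0.34, against -0.016 over all genes. In shCCT2 1 the list had a median change of 0.32, in shCCT2 2 of -0.069 and in shCCT2 3 of 0.62, so shCCT2 2 did not share the direction. Without shCtrl 1 the list median was 0.65, and without shCtrl 2 it was 0.14. In counts, 9 of 9 were higher in shCCT2 1, 2 of 9 in shCCT2 2 and 7 of 9 in shCCT2 3. WDR43, a protein of the small-subunit processome that assembles on ribosomal RNA precursors, stood at 248, 148 and 190.4 CPM in shCCT2 1, 2 and 3, against 150.4 and 86.8 CPM in shCtrl 1 and 2. In shCCT2 1 and shCCT2 3 it was above both controls and in shCCT2 2 just under its own, with a fitted change of 0.70 ± 0.30 (unadjusted p = 0.0544), or 1.16 without shCtrl 1 and 0.39 without shCtrl 2. WDR12, which forms a complex with PES1 and BOP1 for the large subunit, stood at 75.3, 56.6 and 57.8 CPM in shCCT2 libraries and 56.9 and 34.4 CPM in shCtrl libraries. Its groups overlapped only narrowly, at shCCT2 2 and shCtrl 1, and its fitted change was 0.44 ± 0.23, or 0.78 without shCtrl 1 and 0.21 without shCtrl 2.

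WDR74, a factor of large-subunit maturation that works with the ATPase NVL, stood at 42.4, 33.7 and 89.2 CPM in shCCT2 libraries and 38.9 and 32.8 CPM in shCtrl libraries. Only shCCT2 3 stood clear of the controls, with log2 changes of 0.12, -0.21 and 1.43, and the difference between the sets was 1.48 ± 0.35 (edgeR's interaction test, unadjusted p = 0.00621, adjusted p = 0.163). WDR46, also a factor of the small subunit, stood at 68.4, 50.3 and 87.7 CPM in shCCT2 libraries and 54.5 and 56.9 CPM in shCtrl libraries. It was below its control in shCCT2 2 and above both controls in shCCT2 1 and 3, with a fitted change of 0.34 ± 0.23, or 0.65 without shCtrl 1, 0.12 without shCtrl 2 and 0.074 with the replicate block. WDR3, of the same pathway, had 0.36 ± 0.25, or 0.75 without shCtrl 1 and 0.10 without shCtrl 2. The other small-subunit factors WDR75 and WDR36 had 0.20 ± 0.20 and -0.056 ± 0.20. WDR55 had 0.20 ± 0.18, and WDR18, a partner of PELP1 and TEX10, had 0.036 ± 0.20. Among 19 tested ribosome biogenesis partners 19 had a fitted change above 0, where 48.5% of all genes did. Their median was 0.38, and 0 passed. The partners are genes that work with these factors, chosen by function and with earlier results of these data known. The nucleolar proteins NOP58 and NOP56, cores of the particles that methylate ribosomal RNA, had 0.96 ± 0.29 and 0.85 ± 0.29, each above 0 in all 3 knockdown libraries (0.73, 0.30 and 1.55 for NOP58). LAS1L, which cleaves a ribosomal RNA spacer, had 0.66 ± 0.25. In shCCT2 2 these partners too were near 0, with a list median of -0.035 against 0.42 in shCCT2 1 and 0.62 in shCCT2 3.

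Of 9 members that act on chromatin, transcription or RNA, 8 had a fitted change above 0, as did 48.5% of all genes. The list median was 0.37, and 0 passed. That median was 0.57 without shCtrl 1 and 0.21 without shCtrl 2. WDR5, the scaffold of the histone methyltransferase complexes of the KMT2 family, stood at 115, 97.7 and 124 CPM in shCCT2 1, 2 and 3, against 92.1 and 55.6 CPM in shCtrl 1 and 2. All shCCT2 levels were above both controls, although shCCT2 2 was close to its own, the log2 changes being 0.32, 0.083 and 1.15. Its fitted change was 0.60 ± 0.26 (unadjusted p = 0.0567), or 1.18 without shCtrl 1 and 0.21 without shCtrl 2, and the sets differed by 0.94 ± 0.31 (unadjusted p = 0.0237, adjusted p = 0.231, edgeR's interaction test with Benjamini-Hochberg adjustment). WDR4, the partner of METTL1 in tRNA methylation, stood at 15.5, 11.2 and 17.7 CPM in shCCT2 libraries and 7.90 and 12.1 CPM in shCtrl libraries. It was above its own control in all 3 libraries, most in shCCT2 1, the log2 changes being 0.93, 0.48 and 0.53. The fitted change was 0.66 ± 0.29, and the levels of the groups overlapped at shCCT2 2 and shCtrl 2.

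WDR82, which joins the SETD1 complexes and also acts in transcription termination, stood at 246, 194 and 132 CPM in shCCT2 libraries and 181 and 87.8 CPM in shCtrl libraries. Each knockdown level was above its own control, with a fitted change of 0.41 ± 0.20, but set B was lower as a whole and the groups overlapped. WDR77, the partner of the arginine methyltransferase PRMT5, stood at 84.5, 65.4 and 93.7 CPM in shCCT2 libraries and 74.5 and 40.1 CPM in shCtrl libraries. Its levels are given because of the difference between the sets, a choice made after its values were seen. It was higher mainly in shCCT2 3, with a fitted change of 0.51 ± 0.31, or 1.25 without shCtrl 1 and 0.008 without shCtrl 2, and that difference was 1.22 ± 0.35 (unadjusted p = 0.0143). PRMT5 itself showed the same order, its log2 changes being 0.27, -0.19 and 1.24 and the fitted one 0.55 ± 0.31. WDR33, which recognises the polyadenylation signal, stood at 115, 82.7 and 80.4 CPM in shCCT2 libraries and 81.4 and 57.5 CPM in shCtrl libraries. Each level was above its own control, the groups overlapped at shCCT2 3 and shCtrl 1, and the fitted change was 0.37 ± 0.21 (unadjusted p = 0.134). The remaining members of this group were WDR61, a subunit of the PAF and SKI complexes, at 0.24 ± 0.23, WDR6, a partner of FTSJ1 in tRNA methylation, at 0.19 ± 0.18, WDR5B at 0.11 ± 0.31 and WDR83 at -0.20 ± 0.31. Of 21 tested partners 17 had a fitted change above 0 (48.5% of all genes), with a median of 0.14, and 0 passed. SETD1A had 0.44 ± 0.23 and FTSJ1 0.39 ± 0.21.

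Among 5 members tied to ubiquitin ligases or deubiquitinases, 3 had a fitted change above 0, the median was 0.235 and 0 passed. That median was 0.52 without shCtrl 1 and 0.046 without shCtrl 2. WDR76, a substrate receptor candidate of CUL4 ligases that binds chromatin, stood at 45.4, 40.8 and 93.4 CPM in shCCT2 1, 2 and 3, against 39.8 and 20.2 CPM in shCtrl 1 and 2. The shCCT2 levels were all above both controls, but shCCT2 1 and 2 only slightly, with log2 changes of 0.19, 0.035 and 2.18. The difference between the sets was 2.10 ± 0.32, the smallest p of the members in that test (unadjusted p = 0.000638, adjusted p = 0.125, edgeR's interaction test). Its fitted change over both sets was 0.95 ± 0.46, or 2.24 without shCtrl 1 and 0.11 without shCtrl 2. WDR20 and WDR48 activate the deubiquitinases USP12, USP46 and, for WDR48, USP1. WDR20 stood at 38.5, 34.1 and 27.6 CPM in shCCT2 libraries and 30.3 and 16.6 CPM in shCtrl libraries. It was above its own control in each set, with a fitted change of 0.46 ± 0.23, or 0.76 without shCtrl 1 and 0.26 without shCtrl 2, and its groups overlapped at shCCT2 3 and shCtrl 1.

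WDR48 had a fitted change of -0.11 ± 0.18. WDR26, the scaffold of the CTLH ubiquitin ligase, stood at 159, 188 and 126 CPM in shCCT2 libraries and 197 and 184 CPM in shCtrl libraries, below its own control in all 3. Its fitted change was -0.34 ± 0.20, or -0.51 without shCtrl 1 and -0.18 without shCCT2 3, and the groups overlapped at shCCT2 2 and shCtrl 2. WDR70, which associates with CUL4, stood at 70.7, 64.3 and 47.2 CPM in shCCT2 libraries and 65.3 and 33.5 CPM in shCtrl libraries. The groups overlapped, and the fitted change of 0.24 ± 0.20 was 0.52 without shCtrl 1 and 0.046 without shCtrl 2. Of 12 tested partners, 8 had a fitted change above 0 and 0 passed. USP1, which removes ubiquitin from FANCD2 and PCNA, had 0.86 ± 0.29 with 0.59, 0.24 and 1.47 in shCCT2 1, 2 and 3. YPEL5, a CTLH-associated protein, had -0.75 ± 0.28, and USP12 had 0.46 ± 0.21.

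Of 8 tested members that serve cilia, intraflagellar transport or dynein, 5 had a fitted change above 0, the median was 0.087, and 0 passed. The median was -0.064 without shCtrl 2. WDR34, an intermediate chain of the dynein that drives retrograde transport in cilia, stood at 85.4, 97.4 and 150.1 CPM in shCCT2 1, 2 and 3, against 79.6 and 74.2 CPM in shCtrl 1 and 2. Its knockdown levels were all above both controls, most clearly in shCCT2 3, with a fitted change of 0.54 ± 0.24 (unadjusted p = 0.0605), or 1.05 without shCtrl 1 and 0.20 without shCtrl 2. The sets differed for WDR34 by 0.82 ± 0.30 (edgeR's interaction test, unadjusted p = 0.0352). WDR60, the other intermediate chain of that motor, had -0.006 ± 0.25, with log2 changes of -0.16, 0.071 and 0.04. WDR19, a core subunit of the intraflagellar transport complex A, stood at 7.42, 15.1 and 17.3 CPM in shCCT2 libraries and 15.7 and 30.8 CPM in shCtrl libraries. It was over 2-fold below its control in shCCT2 1 and close to that control in shCCT2 2, and the fitted change was -0.64 ± 0.35.

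WDR35, of the same complex, had 0.034 ± 0.25. WDR90, a centriole protein, stood at 2.12, 3.94 and 34.9 CPM in shCCT2 libraries and 3.86 and 10.2 CPM in shCtrl libraries. It was low in set A, where shCCT2 1 lay below the control, and higher in set B, where shCCT2 3 lay above it, with a difference between the sets of 2.13 ± 0.63 (unadjusted p = 0.0158). WDR78, a chain of the axonemal dynein, was near the count minimum, at 1.30, 1.91 and 0.710 CPM in shCCT2 libraries and 2.08 and 1.91 CPM in shCtrl libraries, with a fitted change of -0.81 ± 0.53, or -1.39 without shCtrl 1 and -0.37 without shCCT2 3. WDR92, which helps to assemble axonemal dyneins, had 0.21 ± 0.26, and WDR66 had 0.14 ± 0.26. Of 18 intraflagellar transport and dynein partners, 2 had a fitted change above 0 (48.5% of all genes), the median was -0.17, and 0 passed. Of these, IFT46 had 0.76 ± 0.35, DYNC2LI1 -0.56 ± 0.32 and IFT81 -0.42 ± 0.24.

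Members that act in autophagy, lysosomes, endosomes or the Golgi had 7 of 10 fitted changes below 0, with a median of -0.11, and 0 passed. The median was -0.298 without shCtrl 1. In each fit with a library left out 6 of the 10 were below 0, but not always the same genes. WDR7, WDR11, WDR24 and WDR44 each turned sign in at least 1 of these fits. WDR45, a lipid-binding protein of autophagosome formation, had the smallest unadjusted p of all 58 members. It stood at 23.8, 26.6 and 31.1 CPM in shCCT2 1, 2 and 3, against 36.04 and 67.7 CPM in shCtrl 1 and 2. All knockdown levels were below both controls, the log2 changes were -0.59, -0.43 and -1.11, and the fitted change was -0.78 ± 0.23 (unadjusted p = 0.0127, edgeR's adjusted p = 0.542). Without shCtrl 1 its fitted change was -1.09 and without shCCT2 3 it was -0.52. WDR45B, its close relative, had a fitted change of the opposite sign, with 129, 104 and 187 CPM in shCCT2 libraries and 101 and 130.3 CPM in shCtrl libraries. Each level of WDR45B was above its own control, with a fitted change of 0.34 ± 0.20, and the groups overlapped. That change was 0.55 without shCtrl 1, 0.21 without shCtrl 2 and 0.016 with the replicate block.

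WDR41, which holds the C9orf72 and SMCR8 proteins in their complex at lysosomes, stood at 11.7, 15.2 and 35.4 CPM in shCCT2 libraries and 16.2 and 64.5 CPM in shCtrl libraries. It was below its own control in all 3 libraries, by log2 changes of -0.45, -0.082 and -0.86, and was higher in set B than in set A in both groups. The fitted change was -0.53 ± 0.26, or -0.83 without shCtrl 1 and -0.26 without shCCT2 3. WDR59, a subunit of the GATOR2 complex that relays amino acid supply to mTORC1, stood at 32.9, 38.1 and 30.6 CPM in shCCT2 libraries and 39.3 and 49.04 CPM in shCtrl libraries. Its knockdown levels were all below both controls, with a fitted change of -0.38 ± 0.22 (unadjusted p = 0.137), or -0.65 without shCtrl 1 and -0.15 without shCCT2 3. WDR24, of the same complex, had 0.048 ± 0.24. The endosome regulators WDR91 and WDR81, which work together, had -0.36 ± 0.27 and 0.20 ± 0.23. WDR7, a partner of the vacuolar ATPase, had -0.14 ± 0.27, WDR11, a tether of vesicles at the Golgi, -0.067 ± 0.18, and WDR44, a RAB11-binding protein, -0.009 ± 0.23. The 15 tested partners were split, 8 above and 7 below 0, with a median of 0.007. Of these, WIPI1, a relative of WDR45, had -1.50 ± 0.43 with log2 changes of -0.88, -0.54 and -2.30, SMCR8 had 0.60 ± 0.23 and C9orf72 had -0.61 ± 0.32.

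The cytoskeletal members held both of the higher genes at an unadjusted p under 0.05. WDR62, a spindle pole protein whose loss causes microcephaly, stood at 26.6, 18.9 and 28.5 CPM in shCCT2 1, 2 and 3, against 15.5 and 10.02 CPM in shCtrl 1 and 2. All shCCT2 levels exceeded both controls, the log2 changes being 0.76, 0.28 and 1.46 and the fitted one 0.95 ± 0.32, a 1.93-fold difference (unadjusted p = 0.0238, edgeR's adjusted p = 0.542). Without shCtrl 1 the fitted change was 1.54, and without shCtrl 2 it was 0.55. WDR73, a protein linked to microtubules in mitosis and mutated in Galloway-Mowat syndrome, stood at 29.3, 21.8 and 42.3 CPM in shCCT2 libraries and 19.8 and 17.3 CPM in shCtrl libraries. Its levels too were all above both controls, least so in shCCT2 2, with a fitted change of 0.75 ± 0.30 (unadjusted p = 0.0426, edgeR's adjusted p = 0.542). It came to 1.32 without shCtrl 1 and 0.37 without shCCT2 3.

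WDR1 (also AIP1), which helps cofilin to take actin filaments apart, stood at 349.6, 351 and 298 CPM in shCCT2 libraries and 363 and 335 CPM in shCtrl libraries. The groups overlapped and the fitted change was -0.10 ± 0.18. WDR47, a microtubule-associated protein, stood at 22.97, 35.5 and 23.8 CPM in shCCT2 libraries and 29.7 and 28.3 CPM in shCtrl libraries. Only shCCT2 2 was above its control, and the fitted change was -0.12 ± 0.26. Of 12 genes of cofilin and its regulators, 2 had a fitted change above 0 (48.5% of all genes) and 10 below. Their median was -0.20, and 0 passed. The kinase gene TESK2 had -0.78 ± 0.34, the cofilin relative DSTN -0.37 ± 0.23 and the kinase gene LIMK1 -0.49 ± 0.33.

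The 9 members in no role list had fitted changes from -0.56 to 1.27, 5 of them above 0, and 0 passed. At the top, WDR72, known for its part in enamel formation, was in effect measured in set B alone, through which it met the count minimum. It had 0 CPM in shCCT2 1 and shCCT2 2 and 42.1 CPM in shCCT2 3, against 0.0577 CPM in shCtrl 1 and 15.1 CPM in shCtrl 2. In set A this is 0 counts in both shCCT2 libraries and 1 count in shCtrl 1, so no fold is given there. WDR27 stood at 9.01, 12.48 and 8.68 CPM in shCCT2 libraries and 12.51 and 17.4 CPM in shCtrl libraries. Its levels were all below both controls, by the smallest of margins in shCCT2 2, and the fitted change was -0.56 ± 0.33, or -0.97 without shCtrl 1 and -0.22 without shCCT2 3. WDR53 had 0.22 ± 0.22 and WDR13 -0.19 ± 0.24. The others, WDR25, WDR31, WDR37, WDR54 and WDR89, lay between -0.17 ± 0.29 (WDR37) and 0.24 ± 0.34 (WDR31).

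The size of the changes differed between the knockdown libraries, also within set A, for these genes as for all genes. The median absolute log2 change of the members was 0.29 in shCCT2 1, 0.13 in shCCT2 2 and 0.49 in shCCT2 3, against 0.24, 0.14 and 0.51 over all genes. In shCCT2 3, 10 members (17.2%) were over 2-fold above shCtrl 2, where 8.37% of all genes were, and 2 (WDR45 and GNB4) were over 2-fold below it, where 13.8% of all genes were. In shCCT2 1, 0 members were over 2-fold above (0.671% of all genes) and 1, WDR19, was over 2-fold below (3.28%). In shCCT2 2 no member passed 2-fold in either direction (0.472% and 0.61% of all genes). Across the 58 members, the change in set B and the mean change in set A had a Pearson correlation of 0.41 and a Spearman correlation of 0.46, and 38 had the same direction in both (65.5%). Over all genes tested these were 0.31, 0.35 and 62.5%. The sets share no library, genes are not independent replicates, and set B has 1 library a group.

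**Figure D3:**
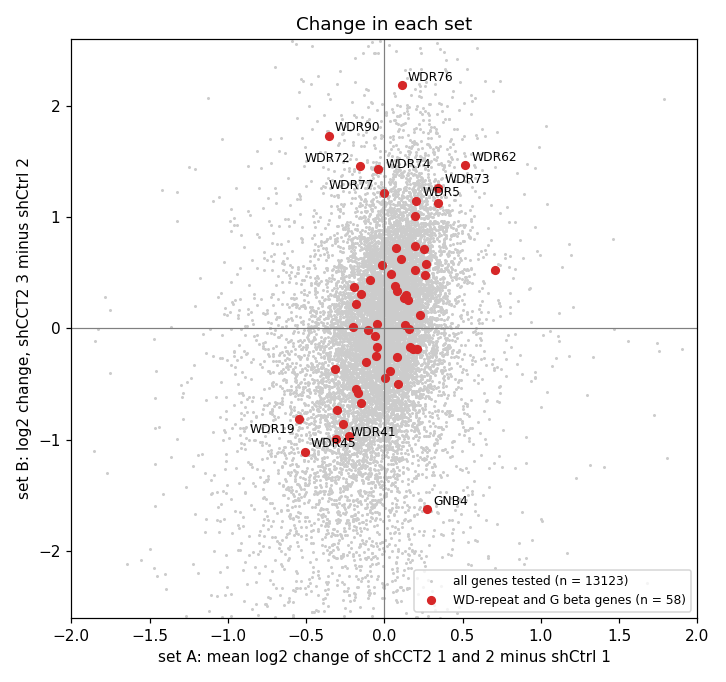
Log2 change of shCCT2 3 minus shCtrl 2 in set B (vertical) against the mean log2 change of shCCT2 1 and 2 minus shCtrl 1 in set A (horizontal), for 58 members (red) and all 13123 genes tested (grey, 201 of them outside the axes). WDR62, WDR73 and WDR5 are above 0 in both sets, WDR45, WDR41 and WDR19 are below 0 in both, and GNB4 and WDR90 have opposite signs.

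The difference between the sets was itself tested, as an interaction that leaves 1 residual degree of freedom. After adjustment, 0 members passed, as did 0 of all genes (0%; edgeR's quasi-likelihood test, Benjamini-Hochberg). At an unadjusted p under 0.05 there were 7 members, where 17.2% of all genes were. Of these, 6 were higher in set B relative to set A (WDR76, WDR74, WDR77, WDR90, WDR5 and WDR34; 7.83% of all genes) and 1 was lower (GNB4; 9.35%).

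The control libraries of the sets also differed in these genes, and there is 1 control a set, so the difference has no replicate check. Over 2-fold higher in shCtrl 2 than in shCtrl 1 were 6 members (WDR72, WDR41, WDR90, WDR54, WDR18 and WDR13), where 17.3% of all genes were. Over 2-fold lower was 1, WDR82, where 12.4% were. WDR72 had 1 count in shCtrl 1, so the size of its difference is not reliable. For WDR54 the levels were 49.5 CPM in shCtrl 2 against 21.5 CPM in shCtrl 1, and for WDR18 they were 66.6 CPM in shCtrl 2 against 29.98 CPM in shCtrl 1. WDR76, higher in shCCT2 3, was also lower in shCtrl 2 than in shCtrl 1, with a log2 difference of -0.96. So were WDR5 (-0.73), WDR77 (-0.89), WDR43 (-0.79) and WDR62 (-0.61). Other members over 2-fold above shCtrl 2 in shCCT2 3 differed less, namely WDR34 (-0.10), WDR73 (-0.185) and WDR74 (-0.24). WDR90 and WDR72, also over 2-fold above it, were higher in shCtrl 2 than in shCtrl 1. Whether the control level has a part in the set B changes of these genes was not tested.

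**Figure D4:**
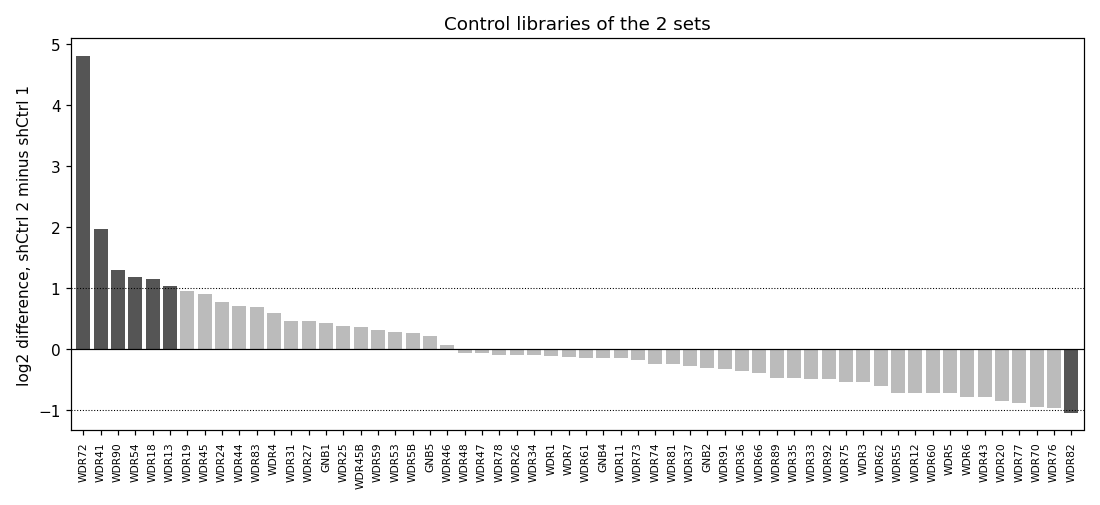
Log2 difference of shCtrl 2 minus shCtrl 1 for each of the 58 members, in order, with dotted lines at 2-fold and dark bars beyond them. WDR72 reaches 4.8, where shCtrl 1 had 1 count and the 0.5 CPM added to each level sets the size. Of the others, 5 exceed 1, and WDR82 lies at -1.04.

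WD-repeat genes whose symbols do not begin with WDR were taken from a list of 80. Some of them, such as BOP1, UTP4, IFT80 and WIPI1, are also in the partner lists above, so this list is not separate from those. Of 79 tested, 54 had a fitted change above 0, where 48.5% of all genes did. The median was 0.13, and 0 passed. By library the medians were 0.14, -0.014 and 0.16 in shCCT2 1, 2 and 3. Besides WIPI1, the genes with the smallest p were TBL1X, a part of nuclear corepressor complexes, at -0.81 ± 0.30, and PAK1IP1, a ribosome biogenesis factor, at 0.70 ± 0.26 with log2 changes of 0.66, 0.17 and 1.04. The other CCT subunits had fitted changes of 0.066 to 0.67, with 7 of the 8 subunit genes above 0 and CCT2 the one below.

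Some levels are less certain than others. Counts that were not whole numbers were present in 8 members, and in all 5 libraries for WDR6, WDR20, WDR54 and WDR55. In the RefSeq annotation 25 members overlap another protein-coding or long non-coding gene, such as WDR20 with HSP90AA1 and WDR83 with WDR83OS and DHPS. No source used here says whether strand was counted, so reads of such pairs cannot be told apart.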

How the data were processed

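RNA-seq of 5 SAS libraries (3 shCCT2, 2 shCtrl) was analysed from the tables the authors deposited. These hold expected counts per gene, named read counts per the file headers, and 86.2% to 87.9% of the values in a library were whole. The authors also deposited a coverage signal along relative transcript position, which served for the share in the last 20% of positions. HTSeq, STAR 1.5.1 and the mouse build mm10 appear, with no role, in the submitters' processing notes. The gene identifiers are human, so the build is not given in the sources used, and the tables' coordinates are not printed. Promoter sequences are from RefSeq with GRCh38.p14, and lengths from GENCODE transcripts.

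Both tables (set A and set B) were merged by gene identifier and the expected counts rounded. The main test was edgeR 4.0.16 (R 4.3.3), quasi-likelihood, TMM, its filter by group, with terms for hairpin and set, and Benjamini-Hochberg adjustment over 13123 genes, threshold 0.05. Single-library log2 changes used CPM plus 0.5. SE is the fitted change over the square root of F. DESeq2 1.42.0, other filters, scalings, designs and left-out libraries were alternatives. The fit was tested on simulated data that had no difference between the sets. After adjustment it called 38 of 198 genes changed 2-fold and 169 of 196 changed 4-fold. No pair of libraries was a duplicate (chi-square per degree of freedom of at least 20.3).

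The members and lists were chosen with earlier results of these data known. Every member may be named, with values by library for the G protein beta genes and up to 4 members a role list by smallest p (WDR77 was added after its values were seen), and up to 3 genes for each partner list. Groups came from the labels. Replicate numbers were not used as pairs, because shCCT2 2 and shCtrl 2 are in different sets.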

Additional observations from a re-analysis of the deposited data

How the results depend on the processing

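No member passed after adjustment under any alternative run. Of all genes, DESeq2 called 2 higher and 11 lower, CCT2 among them (log2 change -1.21, adjusted p = 3.9e-05), and leaving out single libraries gave 0 higher and 0 to 2 lower. Members higher at an unadjusted p under 0.05 numbered 1 without the term for the set, 0 with the replicate block, 0 in set A alone, 5 with DESeq2, and 0 to 11 with single libraries left out (11 without shCtrl 1, which leaves set B to give the change). Lower members numbered 3 with the replicate block, 0 in set A alone and 0 to 3 with libraries left out. The members' median ran from 0.064 without shCtrl 2 to 0.27 without shCtrl 1. The ribosome biogenesis median ran from 0.14 without shCtrl 2 to 0.65 without shCtrl 1. Of the 4 G protein beta genes, 0 were above 0 without the term for the set, 2 in set A alone and 0 to 2 with libraries left out, and of the 8 cilia genes 3 in set A alone and 3 to 5 with libraries left out.

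Among the members, signs turned for 6 without the term for the set, 15 with the replicate block and 11 in set A alone. With no filter on low counts 1 turned, and with DESeq2, DESeq2's size factors or the stricter filter 0 did. With a library left out, 4 (without shCCT2 2) to 12 (without shCtrl 2) turned. Set A alone, the stricter filter and the fit without shCCT2 3 each covered 57 of the 58 members. In all, 24 members turned under some alternative. Among the G protein beta genes, the 4 of each list with the smallest p and WDR1, these were GNB1 (-0.032 without the term for the set, -0.047 with the replicate block, -0.14 to 0.16 with libraries left out), GNB4 (0.35 with the block, 0.28 in set A alone, -1.63 without shCtrl 1 to 0.28 without shCCT2 3), WDR74 (-0.032 in set A alone, -0.034 to 1.47), WDR90 (-1.12 with the block, -0.35 in set A alone, -0.35 to 1.81), WDR72 (-9.98 with the block, -3.17 to 1.51), WDR13 (0.014 in set A alone, -0.43 to 0.014), WDR1 (0.009 with the block) and WDR47 (-0.30 to 0.007). Leaving out 1 library can leave a set with a single group, which then adds nothing to the change, and an arm with 1 library is assumed to vary like the others. The replicate block compares shCCT2 2 in set A with shCtrl 2 in set B. With 2 controls, their deviations from the control mean mirror each other, so correlations with them differ only in sign. The positive ones were those within a set. They were 0.68 for shCCT2 1 and 0.6 for shCCT2 2 with shCtrl 1, and 0.73 for shCCT2 3 with shCtrl 2. They therefore cannot tell pairing by number from the set. WDR76 ran from 0.11 without shCtrl 2 to 2.24 without shCtrl 1, WDR62 from 0.55 to 1.54 and WDR45 from -1.09 to -0.52 on the same kind of range. No alternatives were run for single partner genes or the partner lists. With 2 residual degrees of freedom and 1 control a set, the precision of each change is limited. Counts under 20, as for WDR78 in shCCT2 3 and for WDR72 in all of set A, limit it further.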
